A study of Rattus norvegicus with 36 samples.

Results

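A set of 10 genes that encode sarcomere proteins and enzymes of fast skeletal muscle were followed in the thyroid samples of 36 rats. They were chosen by name, and every array probe whose accession belongs to one of them was taken. The 10 genes were measured by 11 of the 30367 probes, among 15154 genes with a symbol, since Myh2 has 2 probes and the other 9 genes have 1 each. The members were the myosin heavy chains Myh1, Myh2 and Myh4, the Z-disc protein gene Actn3, the fast troponin genes Tnni2, Tnnt3 and Tnnc2, the regulatory light chain gene Myl11, the calcium buffer gene Pvalb and the muscle creatine kinase gene Ckm. All 10 were present at high levels in nearly every sample, were low together in 4 rats, and, like all other probes on the arrays, passed the limits for regulation in no irradiated group.

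Skeletal muscle contracts when myosin heads pull on actin filaments inside the sarcomere, and calcium released from the sarcoplasmic reticulum switches this on through the troponin complex. Fast fibres carry their own isoforms of myosin heavy chain, of each troponin subunit and of the regulatory light chain, and buffer calcium with parvalbumin. Creatine kinase regenerates the ATP that contraction uses. Among the fast myosins, Myh4 encodes the type IIb chain, Myh1 the type IIx chain and Myh2 the type IIa chain, whereas Myh7 encodes the slow chain. Thyroid follicles form no sarcomeres, and the gland lies on the trachea beneath thin neck muscles.

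The animals were adult male Sprague Dawley rats of 9 groups with 4 rats each. Rats of 8 groups received 131I in saline through the tail vein, at 9, 88, 170 or 260 kBq in the lower groups and at 340, 760, 1300 or 4700 kBq in the higher ones, and controls were mock-treated with 0 kBq after the last irradiated group. Thyroids were removed after 24 h and RNA of each rat was hybridised to 1 array with 1 colour, so n counts rats, and groups and order of injection cannot be told apart. Levels below are log2 signal minus the 75th percentile of the same array, which lay between an intensity of 1564 and 4288 (median 2781). From 60.1% to 88.5% of probes were well above background on an array, and no spot was saturated. A level of 0 equals the 75th percentile, and 1 unit is 1 doubling. Array number limits the precision of every value, and levels of different probes are not compared as abundance. Genes said to lead a list are those whose probes had the highest mean signal, from which no order of abundance is read.

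The label of the tissue was checked against follicular genes. Iyd, which encodes the enzyme that recovers iodide from iodotyrosines, fell into separate ranges, -8.21 to -3.28 in 18 rats and -0.26 to 1.45 in the other 18. Its probe was well above background on 21 of 36 arrays. Tg, the thyroglobulin gene, ranged from -4.51 to 7.48 with a median of 6.79. The follicular markers were thus low in part of the samples, controls included, where control rat 3 had an Iyd level of -7.79. In bulk tissue, fewer cells of a type and less RNA per cell cannot be told apart, which holds for the muscle genes as well.

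Since the 3 myosin genes adjoin each other, the 250 bases before their starts are shown, from RefSeq on assembly GRCr8. Myh2, Myh1 and Myh4 lie in this order on chromosome 10 between Myh3 and Myh8, with Myh2 at chr10:52355489-52355738, Myh1 at chr10:52384662-52384911 and Myh4 at chr10:52421898-52422147, all on the plus strand. Capitals mark the longest run common to the 3 sequences, 20 bases that begin 170, 166 and 177 bases before the start.
Myh2: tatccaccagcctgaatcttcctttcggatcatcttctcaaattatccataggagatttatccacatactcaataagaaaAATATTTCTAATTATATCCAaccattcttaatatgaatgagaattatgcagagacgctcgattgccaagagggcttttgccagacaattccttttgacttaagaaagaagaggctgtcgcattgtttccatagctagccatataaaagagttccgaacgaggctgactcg
Myh1: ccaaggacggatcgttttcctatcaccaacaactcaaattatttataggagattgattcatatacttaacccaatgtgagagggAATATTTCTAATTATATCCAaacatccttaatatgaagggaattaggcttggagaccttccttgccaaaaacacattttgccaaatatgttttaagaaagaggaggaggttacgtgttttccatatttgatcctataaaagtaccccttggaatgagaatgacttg
Myh4: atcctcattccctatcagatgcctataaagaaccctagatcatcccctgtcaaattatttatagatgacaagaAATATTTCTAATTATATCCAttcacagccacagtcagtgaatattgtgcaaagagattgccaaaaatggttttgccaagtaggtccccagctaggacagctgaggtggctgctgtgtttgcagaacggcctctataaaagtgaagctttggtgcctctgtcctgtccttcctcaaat
Ckm lies apart on chromosome 1, with the bases before its start at chr1:88189211-88189460 on the plus strand. Its capitals mark matches to CANNTG, the E-box that myogenic factors such as MyoD are known to bind.
Ckm: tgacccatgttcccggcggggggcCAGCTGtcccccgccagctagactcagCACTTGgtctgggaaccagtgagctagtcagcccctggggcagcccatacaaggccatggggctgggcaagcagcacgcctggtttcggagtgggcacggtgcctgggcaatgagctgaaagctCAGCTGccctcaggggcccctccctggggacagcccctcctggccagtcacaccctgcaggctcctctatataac

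The 20-base run occurred in 5 of 33469 promoters of this length, those of Myh2, Myh1 and Myh4 and 2 of the uncharacterised locus LOC102555216. Promoters of 9 of the 10 members were matched, all but Tnnt3. CANNTG, searched on both strands, was present in 6 of 9 (Ckm, Myl11, Tnni2, Tnnc2, Pvalb and Myh4) and in 65.5% of all promoters. CATTCC, the core of the MCAT element, was present in 2 of 9 (Myh1 and Myh4) and in 12.1% of all promoters. The MEF2 motif, by its usual degenerate form, was present in the same 2 of 9 and in 2.96% of all promoters. These matches describe letters in a window and were not tied to any level.

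Ckm encodes the cytosolic creatine kinase of muscle and stands here for the general pattern. Its levels in the control rats were 6.95, 6.87, 7.57 and 6.61. In the 9 kBq group they were 7.94, 3.55, 6.87 and 7.41. In the 88 kBq group they were 7.48, 6.99, 1.82 and 7.05. Both irradiated groups held 1 rat far below the controls, rat 2 at 9 kBq and rat 3 at 88 kBq, with the other rats in or above the control range. The 170 kBq group had 7.30, 7.19, 7.82 and 6.80. The 260 kBq group had 6.24, 6.11, 7.55 and 7.94. The 340 kBq group had 7.79, 8.0, 7.37 and 7.11. These 12 rats stood on both sides of the control range, and none of the 3 groups was apart from it. The 760 kBq group had 7.32, 7.31, -2.93 and 6.78. The 1300 kBq group had 8.30, 7.61, 6.67 and 6.67. The 4700 kBq group had 7.18, 3.93, 7.97 and 6.76. Rat 3 at 760 kBq was the lowest of all 36, rat 1 at 1300 kBq the highest, and rat 2 at 4700 kBq joined the low ones, while the remaining rats of these groups were in or above the control range.

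**Figure D1:**
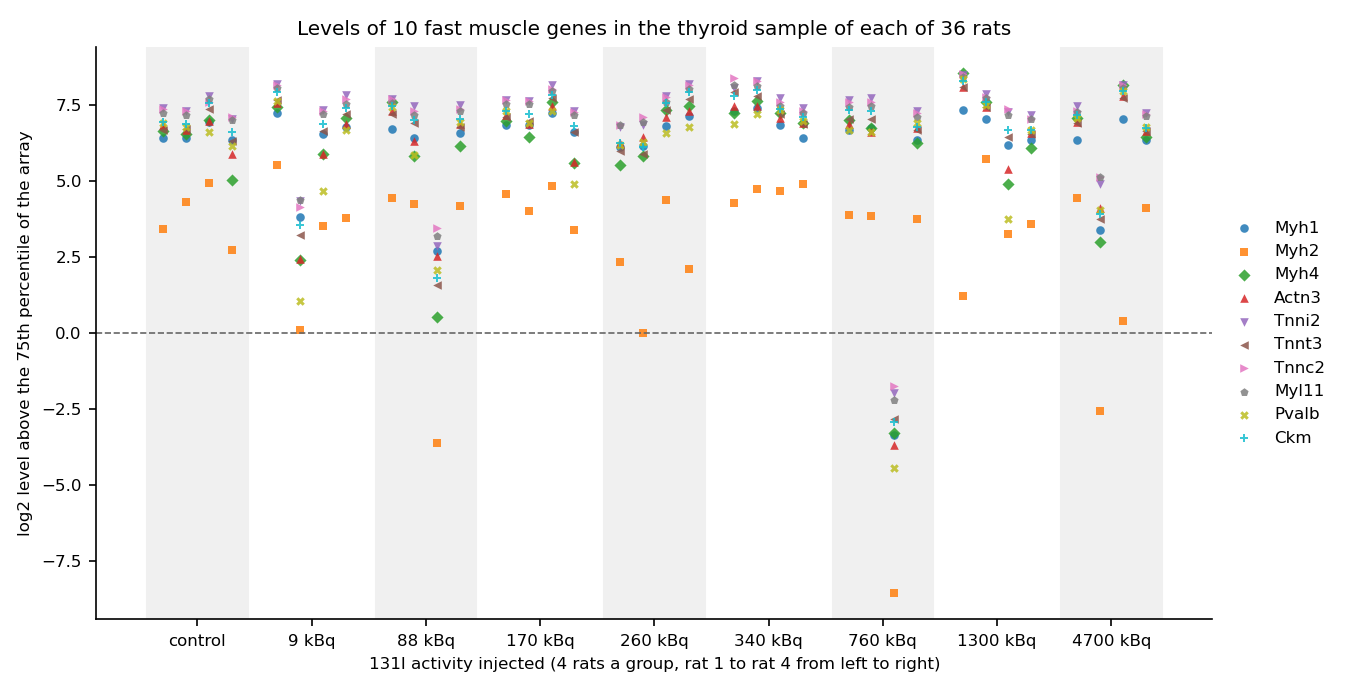
Log2 level above the 75th percentile of the array for 10 fast muscle genes in each of 36 rats, by injected activity of 131I, with 1 symbol per gene. In 32 rats the mean of the 10 lay between 5.76 and 7.54, and in rat 3 of the 760 kBq group it was -3.49.

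Myh4 encodes the myosin of the fastest fibres. Its levels were 6.64, 6.55, 7.01 and 5.04 in control rats. They were 7.43, 2.39, 5.88 and 7.08 at 9 kBq, and 7.59, 5.82, 0.55 and 6.15 at 88 kBq. Control rat 4 was the lowest control for Myh4, and rat 3 at 88 kBq lay far below it. At 170 kBq the levels were 6.97, 6.46, 7.60 and 5.61. At 260 kBq they were 5.53, 5.82, 7.33 and 7.48. At 340 kBq they were 7.24, 7.65, 7.22 and 6.92, and in this group 3 of 4 rats were above all controls. At 760 kBq the levels were 6.99, 6.75, -3.26 and 6.26. At 1300 kBq they were 8.55, 7.59, 4.92 and 6.08. At 4700 kBq they were 7.08, 3.01, 8.15 and 6.44. The last 2 groups held both some of the highest and some of the lowest Myh4 levels.

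Myh2, the type IIa myosin gene, did not follow the others in every rat. Its levels in control rats were 3.43, 4.32, 4.95 and 2.72. They were 2.33, -0.0034, 4.39 and 2.12 at 260 kBq. They were 1.22, 5.74, 3.27 and 3.59 at 1300 kBq, and 4.44, -2.57, 0.41 and 4.11 at 4700 kBq. Rat 1 at 1300 kBq and rat 3 at 4700 kBq, which had the highest Myh4 levels of all, were below every control for Myh2. Over the 36 rats Myh2 ran from -8.54 to 5.74 with a median of 3.88. Its other probe ran from -8.27 to 3.81, and the 2 Myh2 probes followed each other (r = 0.99, rho = 0.98, permutation p = 1e-05 for both, the smallest that 100000 permutations can give; r = 0.99 without the 2 farthest rats). The myosin heavy chain genes are close relatives, and how far their probes separate them was not tested, since probe sequences were not used here.

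The other members are given by their range. The troponin genes encode the inhibitory subunit (Tnni2), the tropomyosin-binding subunit (Tnnt3) and the calcium sensor (Tnnc2) of the fast fibre switch. Tnni2 ranged from -1.98 to 8.50 with a median of 7.48, Tnnt3 from -2.82 to 8.10 with a median of 6.90, and Tnnc2 from -1.72 to 8.53 with a median of 7.38. Actn3, which encodes the alpha-actinin of fast Z-discs, ranged from -3.69 to 8.11 (median 6.87). Myl11, the light chain gene, ranged from -2.19 to 8.41 (median 7.29). Pvalb, the parvalbumin gene, ranged from -4.42 to 8.37 (median 6.77). Myh1, the type IIx myosin gene, ranged from -3.33 to 7.39 (median 6.61). The lowest value of each of the 10 genes was that of rat 3 at 760 kBq, and the highest that of rat 1 at 1300 kBq for all but Myh1 and Myh2. The probe of each gene was well above background on 36 of 36 arrays, except that of Myh2 on 35.

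The 10 genes together gave from 0.00204% to 2.26% of the summed signal of an array, with a median of 1.67%. In 32 rats this share was 1.17% or more. In the other 4 it was 0.00204% (760 kBq rat 3), 0.0816% (88 kBq rat 3), 0.191% (9 kBq rat 2) and 0.315% (4700 kBq rat 2). These 4 rats came from 4 groups and 3 slides. Against the median of each gene over all rats, rat 3 at 760 kBq differed by -11.19 to -9.10 on the log2 scale over the 9 genes well above background there, with a median of -9.94, and Myh2 was not well above background. The median differences of the other 3 rats were -4.64, -3.63 and -2.95, in the order above. The 4 rats lay in the upper Iyd range, with Iyd at 1.45, 1.23, 0.36 and 0.86, in the order above. Tg was at 7.43, 6.93, 6.78 and 6.80 in them, against a median of 6.79 over all rats. Their C cell markers summed to 7.92, 7.22, 6.54 and 7.43 and their parathyroid markers to 6.76, 6.93, 6.38 and 6.70. The other 14 rats of the upper Iyd range, with higher muscle levels, had C cell sums of 5.40 to 7.55 (median 6.94) and parathyroid sums of 1.05 to 7.12 (median 6.53). Lymphoid markers summed to 5.69 in rat 2 at 9 kBq, and to 5.40 and 5.11 in rat 1 at 88 kBq and control rat 2, whose mean muscle levels were 7.11 and 6.60, against a median of -2.14 over all rats. The follicular markers summed to 8.57 in rat 3 at 760 kBq, the highest of all rats, against a lowest value of 0.68 in rat 1 at 1300 kBq, where the fast muscle genes summed to their highest value, 11.46. Of the follicular probes that of Tg had the highest mean signal, from which no order of abundance is read. Of the 18 rats in the upper Iyd range, the other 14 were among the 32 rats with higher levels. The part of these other cell types in the low levels was not tested.

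Between rats of the same group, the SD of the members was 1.87 (Tnnc2) to 2.95 (Myh2) log2 units. Over all 30367 probes the median of this SD was 0.67 and the 95th percentile 1.84. The members stood between the 95.1th and the 98.9th percentile of this spread. Rat 3 at 760 kBq carried much of it. Without this rat the SD was 1.06 (Myh1) to 2.14 (Myh2), at the 80.5th to 97.1th percentile, and only Myh2 was above the 95th percentile of all probes, 1.79.

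Whether 131I changed these genes was asked by comparing each irradiated group with controls. No member was regulated at any activity, which here means a Benjamini-Hochberg adjusted p under 0.01 with a fold change of at least 1.5 in limma (0 of 10 in each of 8 comparisons, beside 0% of all probes in each). At an unadjusted p under 0.05 the count was also 0 of 10 in each comparison, beside 3.22%, 3.36%, 2.36%, 1.12%, 13.7%, 1.64%, 4.18% and 1.66% of all probes from 9 to 4700 kBq. No member had all 4 irradiated rats above, or all 4 below, all 4 controls. Non-overlapping groups were found above controls for 1.48%, 1.67%, 1%, 0.823%, 4.04%, 1.38%, 1.07% and 0.715% of probes and below controls for 0.247%, 0.194%, 0.244%, 0.244%, 0.304%, 0.247%, 0.188% and 0.553%, in the same order.

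The median log2 ratio of the 10 genes was -0.56 at 9 kBq, -1.01 at 88 kBq, 0.31 at 170 kBq, 0.03 at 260 kBq, 0.56 at 340 kBq, -2.35 at 760 kBq, 0.31 at 1300 kBq and -0.41 at 4700 kBq. The medians over all probes were 0.07, 0.09, 0.12, 0.03, 0.31, 0.08, 0.22 and 0.09, and quantile normalization brought the value at 340 kBq from 0.31 to -0.02 and that of the members from 0.56 to 0.14. All 10 ratios were below 0 at 9, 88, 760 and 4700 kBq and above 0 at 340 kBq, while 1, 4 and 2 were below 0 at 170, 260 and 1300 kBq. Without the low rat of the group, the medians at 9 kBq (rat 2) and 88 kBq (rat 3) changed sign to 0.39 and 0.18. With slide as a block these medians were -1.13 and -2.16 and that at 260 kBq -1.29, and with array weights the median at 9 kBq was 0.19. The 8 comparisons share the same 4 controls. The standard errors of 1.27 to 2.0 log2 units were larger than most of these ratios.

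The 760 kBq group had the largest median shift. Its log2 ratios (± SE, 4 rats against 4) were -2.42 ± 1.33 for Myh1, -3.11 ± 2.0 for Myh2, -2.12 ± 1.60 for Myh4, -2.47 ± 1.47 for Actn3, -2.20 ± 1.34 for Tnni2, -2.27 ± 1.44 for Tnnt3, -2.16 ± 1.27 for Tnnc2, -2.32 ± 1.29 for Myl11, -2.66 ± 1.66 for Pvalb and -2.38 ± 1.46 for Ckm. The smallest limma p was 0.0792 (Myh1) with an adjusted p of 1.0, and the exact permutation p (both sides) was 0.486 or more, where 0.0286 is the smallest that 4 against 4 rats allow. Rat 3 alone carried the shift, and without it the median log2 ratio was 0.14, and with array weights -0.49. Slide as a block brought 5 members to an unadjusted p under 0.05 at ratios of -3.63 to -2.74, and leaving out another rat of this group brought 5 or 7 there at -3.65 to -2.84, each with an adjusted p of 1.0. The members were low together in rat 3, so these counts are not of separate results. The share of all probes in these fits is not given here, and no reading is made from the counts.

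At 4700 kBq, the highest activity, the log2 ratios were -0.75 ± 1.33 for Myh1, -2.26 ± 2.0 for Myh2, -0.14 ± 1.60 for Myh4, -0.22 ± 1.47 for Actn3, -0.44 ± 1.34 for Tnni2, -0.49 ± 1.44 for Tnnt3, -0.38 ± 1.27 for Tnnc2, -0.38 ± 1.29 for Myl11, -0.14 ± 1.66 for Pvalb and -0.54 ± 1.46 for Ckm. The smallest limma p was 0.269 (Myh2), and its exact permutation p was 0.314. Without rat 2 the median log2 ratio changed sign to 0.27. Within the slides that held controls and rats of this group, the median difference was 0.31 on slide 1 (2 rats against 2) and 0.12 on slide 5 (1 against 1).

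Myh4, Tnni2 and Ckm were read at every activity, with levels against the control means of 6.31 ± 0.87, 7.38 ± 0.31 and 6.999 ± 0.40 (SD, n = 4). At 9 kBq their log2 ratios were -0.61, -0.45 and -0.56. At 88 kBq they were -1.28, -0.99 and -1.16. At 170 kBq they were 0.35, 0.31 and 0.28. Group means of Ckm in the first 3 groups were 6.44 ± 1.98, 5.84 ± 2.68 and 7.28 ± 0.42 (SD, n = 4). The spread was wide where a low rat was present. At 260 kBq the ratios were 0.23, 0.03 and -0.04. At 340 kBq they were 0.95, 0.48 and 0.57. At 1300 kBq they were 0.48, 0.32 and 0.31. The smallest exact permutation p among all members and groups was 0.0571, at 340 kBq, where the smallest adjusted p of the members in limma was 0.750 (Myh4).

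**Figure D2:**
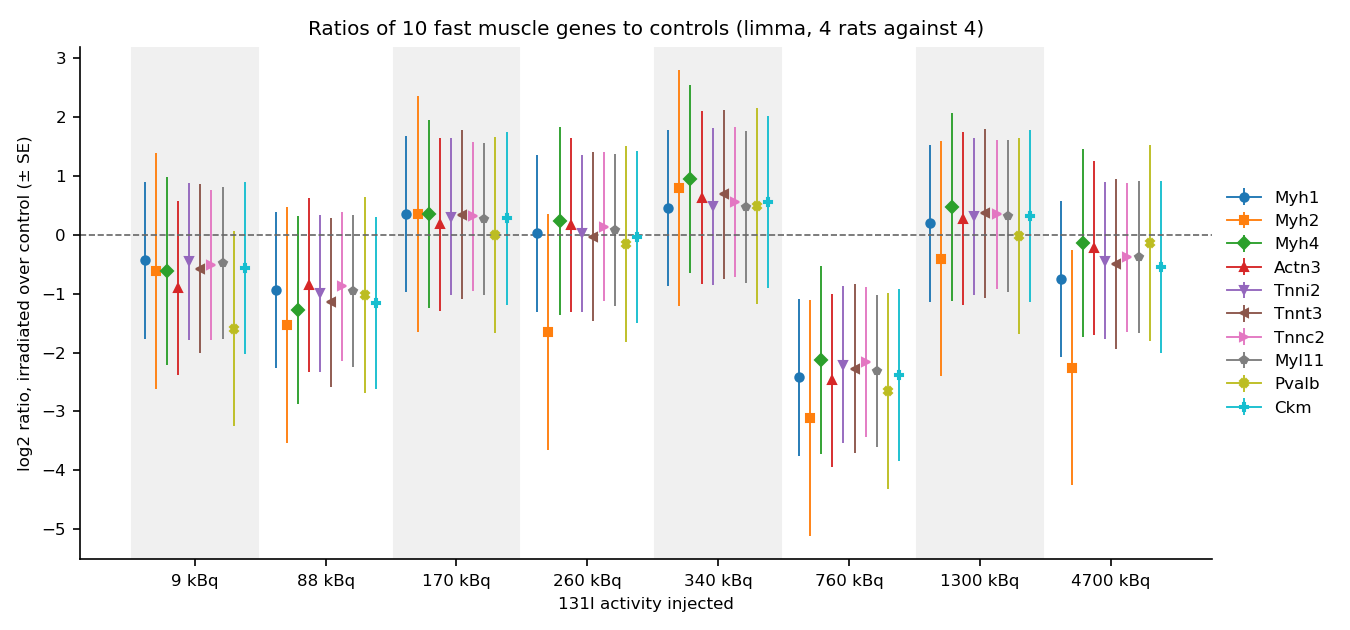
Log2 ratio of each irradiated group over controls for 10 fast muscle genes (limma, 4 rats against 4, bars ± SE). At 760 kBq the ratios were -3.11 to -2.12, and in no comparison did a member reach an unadjusted p under 0.05.

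A single test over the 9 groups was also made. The limma F-test had an adjusted p of 0.989 for each of the 10 members, and 0 of 10 passed an adjusted p of 0.01, beside 0.0132% of all probes (4 of 30367), and 0 of 10 had an unadjusted p under 0.05, beside 2.69%. Arrays were on 5 slides with 6 to 8 arrays each, and controls were on slides 1, 2 and 5. Within slides, the median difference of the members at 760 kBq was -9.77 on slide 2, where rat 3 was the only irradiated rat of the group, and 0.27 on slide 5. At 9 kBq it was -3.57 on slide 1, with the low rat 2, against -0.03 on slide 2 and 0.36 on slide 5. At 340 kBq it was 0.99 on slide 2 and 0.46 on slide 5. At 170, 260 and 1300 kBq it took both signs, with -0.26, -0.53 and -0.27 on slide 1. On slide 2 it was 0.35 at 170 kBq and 0.46 at 1300 kBq, and on slide 5 it was 0.80 at 260 kBq.

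The members were next set against the follicular gene Iyd between rats of the same group. The slope was fitted over all 36 rats and so spans both ranges of Iyd, the lower of which is mostly background signal. The slopes of all 10 were below 0, from -0.31 to -0.22 log2 units per log2 unit of Iyd and a median of -0.24, where the median over all probes was -0.02. The slope passed an adjusted p of 0.01 in limma for 3 of 10, beside 23.5% of all probes that passed in this direction and 18.3% in the other. These were Myh4 (-0.31 ± 0.09, SE, adjusted p = 0.00479), Tnnt3 (-0.27 ± 0.08, adjusted p = 0.00631) and Ckm (-0.27 ± 0.08, adjusted p = 0.00787). At an adjusted p of 0.05 the count was 9 of 10, beside 30.2% of all probes, and Myh2 had an adjusted p of 0.110. Slopes within each of the 5 slides, fitted with no group term, were below 0 in 48 of 50 cases. These cases are 10 members that moved together on 5 slides, not separate results, and the share of all probes is not given here. The count of members that passed 0.01 rests on the scaling and on single rats. With quantile normalization 0 of 10 passed 0.01, beside 19.0% of all probes below 0. Without rat 3 at 760 kBq 7 of 10 did (slopes of the 10 from -0.24 to -0.15), beside 22.5%. Without rat 2 at 9 kBq, rat 3 at 88 kBq or rat 2 at 760 kBq 0 of 10 did, beside 22.2%, 22.9% and 23.1%. With rat number as a block 9 of 10 passed, but the share of all probes under this block is not given here, so the count cannot be read against it.

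Since Iyd fell into separate ranges, which the slope pools, correlations were taken within each range. In the 18 rats with low Iyd, the Iyd probe was well above background in 3, so that most of its values there are background signal. In these rats r with Iyd was -0.18 to 0.24 and rho -0.08 to 0.32 over the 10 members. The smallest adjusted permutation p was 0.607 for r and 0.358 for rho. With quantile normalization Ckm alone was under 0.05 by rho in these rats (rho = 0.62, adjusted permutation p = 0.0277). Of all probes 0.297% had a rho as high. In the 18 rats with high Iyd, all with the probe well above background, r was -0.64 to -0.45 and rho -0.78 to -0.45, all below 0. The smallest adjusted permutation p of r was 0.0520 and that of rho 0.0062, with 4 of 10 under 0.05 by rho and 0 of 10 by r (20 relations). The weakest rho of these 4 was 0.60 in size, and 5.54% of all probes had a rho as far below 0. With quantile normalization 9 of 10 were under 0.05 by rho, at 0.53 or more in size, which 7.49% of all probes reached below 0, and 0 of 10 by r. Without the 2 rats farthest from the median of Iyd, r in these 18 rats was -0.54 to -0.16. The 4 rats with low muscle levels all lay in this range. Points share the array, so both levels carry the same scaling.

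**Figure D3:**
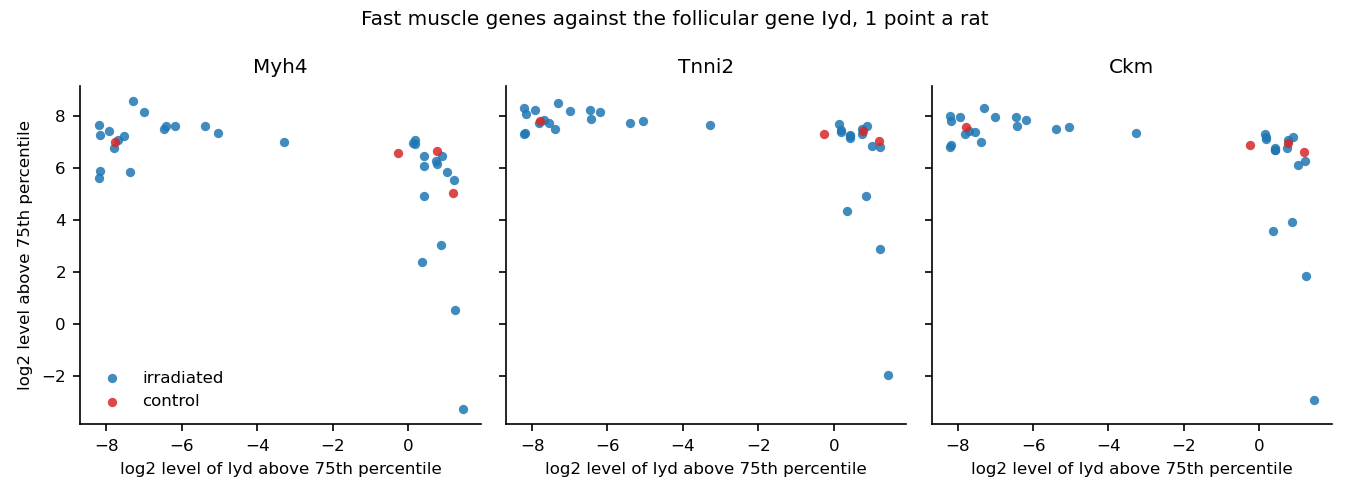
Levels of Myh4, Tnni2 and Ckm (log2 above the 75th percentile of the array) against the follicular gene Iyd, 1 point per rat, with controls in red. Rats form 2 ranges of Iyd, and the levels under 4 lie at the right, at Iyd levels of 0.36 to 1.45.

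In the 32 rats above the gap in the mean of the 10 genes, the members followed Ckm closely except for Myh2 and Pvalb. These rats were chosen after seeing the data, by the levels of the members themselves, to leave out the 4 low rats. The permutation p values therefore hold for this subset only. With Ckm, r was 0.83 to 0.99 for Myh1, Myh4, Actn3, Tnni2, Tnnt3, Tnnc2 and Myl11 (adjusted permutation p = 2.38e-05 each, over 19 relations). For Pvalb it was 0.61 (rho = 0.63, adjusted permutation p = 0.000211), and 0.94 over all 36 rats. For Myh2 it was 0.21 (rho = 0.40), with adjusted permutation p of 0.368 for r and 0.0463 for rho. Over all 36 rats r of Myh2 with Ckm was 0.88 (adjusted permutation p = 3.8e-05) and rho 0.58. Within slides, over all rats of a slide, r with Ckm went down to -0.53 for Myh2 and -0.43 for Pvalb and stayed at 0.84 or more for the other 7.

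The members were also set against the slow myosin gene Myh7. In the same 32 rats Myh2 had r = 0.72 with Myh7 (rho = 0.74, adjusted permutation p = 2.38e-05), and r = 0.59 without the 2 farthest rats. For Pvalb r was 0.12 (adjusted permutation p = 0.570) and rho 0.39 (adjusted permutation p = 0.0463), with r = 0.48 without the 2 farthest rats. For the other 8 members r was -0.32 to -0.03 and rho -0.03 to 0.16, and the smallest adjusted permutation p was 0.140 for r and 0.618 for rho. Without the 2 farthest rats r of these 8 was -0.07 to 0.33. Over all 36 rats r turned positive, at 0.58 to 0.62 for these 8, beside 0.84 for Myh2 and 0.63 for Pvalb. The adjusted permutation p of r was then 0.00019 or less for these 8. Their rho was 0.27 to 0.40, with an adjusted permutation p of 0.0263 or more. The 4 low rats had Myh7 at -6.48 to -3.26. Within slides, over all rats of a slide, the r with Myh7 was 0.49 to 0.95 for Myh2 and 0.52 to 0.93 for Pvalb, and between -0.93 and 0.92 for the other 8. Rat 1 at 1300 kBq had Myh4 at 8.55, Myh2 at 1.22 and Myh7 at -3.38. Rat 3 at 4700 kBq had Myh4 at 8.15, Myh2 at 0.41 and Myh7 at -2.45. In these rats the fast type IIb myosin was high while the type IIa and slow myosins were low. The difference between the correlations of Myh2 and of the other members was not tested.

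**Figure D4:**
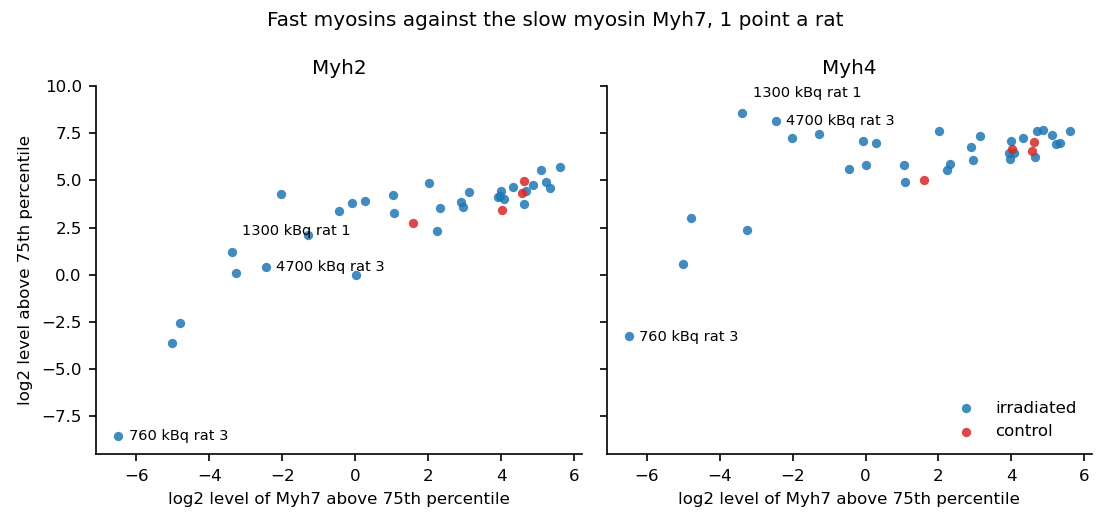
Levels of Myh2 and Myh4 against the slow myosin gene Myh7 (log2 above the 75th percentile of the array), 1 point per rat, with controls in red and 3 rats named. In rat 1 at 1300 kBq and rat 3 at 4700 kBq, Myh2 was at 1.22 and 0.41 while Myh4 was at 8.55 and 8.15.

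Pvalb was far below the controls in 3 further rats in which Ckm was not. Its levels were 3.77 in rat 3 at 1300 kBq, 4.66 in rat 3 at 9 kBq and 4.90 in rat 4 at 170 kBq, against Ckm levels of 6.67, 6.87 and 6.80. The lowest control level of Pvalb was 6.16. Rat 2 at 88 kBq was also below it, at 5.87, with Ckm at 6.99. The squamous epithelium markers, led by Krt14, summed to 5.51, 8.51 and 8.60 in the first 3 rats, against a median of -0.22 over all rats. Krt13, a keratin of squamous lining, was at 4.09, 6.77 and 6.79. In the 9 other rats with a sum of 5.51 or more Pvalb was at 5.87 to 7.32, among them rat 4 at 9 kBq with the highest sum, 8.68, and Pvalb at 6.69. The part of this tissue in the Pvalb levels was not tested.

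Other muscle genes were read from fixed lists, by their counts and medians. None of the genes of any list was regulated in any comparison. Of 8 other fast sarcomere genes 6 had a probe. Myh8, the perinatal myosin gene, ranged from -0.32 to 8.40, and Myoz1, which encodes a Z-disc protein, from -1.18 to 7.96. The median log2 ratio of these 6 genes was -1.94 at 760 kBq, 0.89 at 340 kBq and -0.37 at 4700 kBq. At an unadjusted p under 0.05, 1 of 48 tests of the list passed, Myh3 at 760 kBq with a lower level, beside 3.9% of the tests of all probes in the 8 comparisons. Of the other lists, 3 of 96 tests passed for slow fibre genes, all Pln with a higher level, 2 of 24 for erythroid genes, both higher, 1 of 32 for airway genes, higher, 1 of 96 for follicular markers, lower, and 1 of 48 for neuromuscular junction genes. For the other fast sarcomere genes, slopes on Iyd were below 0 in 6 of 6 and passed an adjusted p of 0.01 in 5. For the lists that follow, a slope is said to pass at this limit, beside the 23.5% of all probes below 0 and 18.3% above 0.

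Genes of the sarcomere of both fibre types had a probe in 8 of 13 cases, led by Acta1, the skeletal actin gene (-4.45 to 8.23), and Mybpc1, a myosin-binding protein gene (-4.07 to 7.10), and the slope on Iyd passed below 0 for 7 of 8. Sarcoplasmic reticulum and excitation genes had a probe in 10 of 11 cases, led by Atp2a1, the fast fibre calcium pump gene (-2.22 to 7.81), and Casq1, the calcium-storing calsequestrin gene (-3.85 to 7.77), and the slope passed below 0 for 8 of 10. Muscle energy enzymes were all measured, led by Eno3, the muscle enolase gene (0.74 to 8.15), and Mb, the myoglobin gene (-1.82 to 8.15), and the slope passed below 0 for 11 of 12. All slopes of these 3 lists were below 0. In rat 3 at 760 kBq 7 of 8, 10 of 10 and 10 of 12 genes of these lists had their lowest level, all but Tpm2, Gpd1 and Phka1. Their median log2 ratios at 760 kBq were -2.10, -2.24 and -1.63, beside 0.08 over all probes.

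The 6 neuromuscular junction genes, led by the acetylcholine receptor subunit genes Chrnb1 (-1.51 to 3.31) and Chrna1 (-3.76 to -0.36), had slopes that passed below 0 in 5 of 5 other than Musk, whose probe was well above background on 2 of 36 arrays. Their single test with an unadjusted p under 0.05 was that of Musk at 340 kBq, where 13.7% of all probes passed, and no ratio is given for it. Of the myogenic regulators 6 of 7 were measured, led by Myod1 (-8.70 to 3.24), a transcription factor of the muscle programme, and the slope passed below 0 for 4 of 6, with 6 of 6 below 0. Among them the probe of Pax7, whose slope did not pass, was well above background on 1 of 36 arrays. Of 12 slow fibre genes measured, 9 had a slope below 0 and 3 above 0 (median -0.07). The slope passed below 0 for 2 and above 0 for 1, and did not pass for Myh7 (-0.03) or Tnnt1 (-0.11), the slow troponin T gene. Atp2a2, the slow fibre calcium pump gene, ranged from 0.38 to 4.83. Pln, which encodes the brake of that pump and is named here after its values were seen, had a log2 ratio of 2.26 at 4700 kBq with an adjusted p of 0.0332 in limma, short of the limit, and was at -0.36 in rat 3 at 760 kBq, above its median of -1.01.

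Genes of the other cell types in the sample were read in the same way. Follicular markers, led by Tg, had slopes on Iyd that passed above 0 in 11 of 11 other than Iyd. C cell markers, led by Calca and Chgb, did so in 5 of 5, and parathyroid markers, led by Pth and Casr, in 3 of 3. Smooth muscle genes, led by Smtn and Tagln, had slopes below 0 in 7 of 7, of which 5 passed. Cartilage genes, led by Col11a2 and Col2a1, had them in 5 of 6, of which 4 passed, and squamous genes, led by Krt14 and Krt4, in 5 of 5, of which 3 passed. Adipose genes, led by Adipoq and Ucp1, had slopes above 0 in 4 of 4, of which 1 passed. Of airway genes, led by Bpifa1 and Sftpd, 1 of 4 passed above 0. Of lymphoid genes, led by Ptprc and Cd3g, 0 of 5 passed either way, and of erythroid genes, led by Hbb and Alas2, 2 of 3 passed below and 1 above 0. Dim probes were kept in these counts, such as those of Cd3e, Lep and Foxj1, well above background on 4, 5 and 8 of 36 arrays. In rat 3 at 760 kBq the summed C cell and follicular levels, 7.92 and 8.57, were the highest of all rats.

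Outside the muscle lists, the genes most like the members over the 36 rats were found by Pearson r with the mean of the 10 member probes, among 15060 genes, as a description. They were Sypl2 (0.98), Art1 (0.98), Rpl3l (0.98), Nrap (0.97), Rbfox1 (0.97), Trim54 (0.97), Klhl31 (0.97), Hjv (0.97), Ppp1r3a (0.96) and Asb11 (0.96). Without rat 3 at 760 kBq their r was 0.96 to 0.98. The 4 low rats set the order at the top, since over the other 32 rats, an alternative added after seeing the data, 0 of the 10 were among the 10 highest. The 10 genes still had r of 0.90 to 0.94 there, at ranks 13 to 177 of the 15060. Nrap encodes an actin-anchoring protein of striated muscle, Trim54 a ubiquitin ligase of the sarcomere, Rpl3l a ribosomal protein of striated muscle and Ppp1r3a a glycogen-targeting subunit of protein phosphatase 1. The least like genes were Prr3 (-0.80), Rpl15 (-0.75), Sin3b (-0.71), Slc25a17 (-0.71) and Apeh (-0.71). Over 32 rats 0 of these were among the 5 lowest, at r of -0.82 to -0.62 and ranks 90 to 1540 from the lowest. Prr3 ranged from -3.08 to 1.07 and Rpl15 from -1.96 to -0.66.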

How the data were processed

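RNA of each rat was hybridised by the authors to 1 Agilent 1-colour array, and groups were taken from the sample labels. Per the file headers, Feature Extraction 10.7.3.1 made the deposited intensity, the processed signal, by subtracting background and a spatial trend, with no scaling between arrays. The matrix deposited by the authors holds an intensity that was quantile normalized on a linear scale, and Partek is named in the processing notes. The second form served as an alternative. Control spots and outlier spots were left out, spots of a probe were averaged as log2, and each array was centred on its 75th percentile. Probes were named through their accessions in RefSeq (17998 of 30367 with a symbol, 12369 without), 99 probes lacked a value on some array and were fitted without it, and a gene was read from its probe with the highest mean level. All probes were fitted in limma 3.58.1 (R 4.3.3) with 1 mean per group and Benjamini-Hochberg adjustment, and regulated means an adjusted p under 0.01 with 1.5-fold change or more. Slopes on Iyd were fitted with the group means. Permutation tests were two-sided, exact for 4 against 4 rats and with 100000 permutations for correlations. The fits were tested on simulated data. All 10 members were described, with all 10 log2 ratios given in the comparison with the largest median and at 4700 kBq, and Myh4, Tnni2 and Ckm in all, and the 2 genes with the highest mean level were named from each list, except where a gene is not reported here. The members and lists were chosen with earlier results of these data known. No 2 arrays were identical (highest r = 0.991). Rat numbers did not pair the arrays. Alternatives changed the scaling, background correction, source of values, dim probes (kept where all 4 rats of some group were above background), outlier spots, slide or rat number as a block, array weights, groups in the fit, threshold and each rat. The rats are separate animals, 1 array each.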

Additional observations from a re-analysis of the deposited data

Results flagged for a closer look

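In 9 groups of 4 rats, 19 of 90 combinations of member and group held a rat far from its group, by the gap to the nearest rat as a share of the range of the group and the 95% limit of Dixon's test. This is 21.1%, beside 7.63% over all 30268 probes with a value on every array. Chance flags about 1 in 20 groups, and the 10 members are not independent, since they were low in the same rats.

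Rat 3 of the 760 kBq group was low for every member, with shares of 0.962 for Myh1, 0.988 for Myh2, 0.929 for Myh4, 0.956 for Tnni2, 0.963 for Tnnt3, 0.958 for Tnnc2, 0.974 for Actn3, 0.962 for Myl11, 0.974 for Pvalb and 0.947 for Ckm. Its Iyd level of 1.45 was the highest of all rats and Tg was at 7.43, and their part in the muscle levels was not tested. Rat 3 of the 88 kBq group was low for 7 members, with shares of 0.926 for Myh1, 0.969 for Myh2, 0.951 for Tnni2, 0.926 for Tnnt3, 0.907 for Tnnc2, 0.915 for Myl11 and 0.913 for Ckm. Control rat 3, the control with low Iyd, was high for Myh1 at 6.95 (0.928). Rat 4 of the 170 kBq group was low for Pvalb at 4.90 (0.836).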

How the results depend on the processing

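No member was regulated under any alternative, the F-test called no member in any, and the slopes of all 10 members on Iyd stayed below 0. Of 291 values of the main comparisons under alternatives that kept all rats, 248 kept their side of the limit or moved by less than the spread between rats. Where a value moved, the cause was not tested unless stated.

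Counts of regulated transcripts against controls, 0 in each comparison, were small under most settings. Quantile normalization gave 4, 4, 3 and 4 at 9, 88, 170 and 260 kBq, as did the authors' matrix (4, 4, 3 and 4). Normexp background gave 2 at 9, 88 and 4700 kBq, and only probes above background gave 4 and 3 at 9 and 88 kBq. An adjusted p under 0.05 gave 5, 4, 3 and 6 at 9, 88, 170 and 4700 kBq. Array weights gave 2353, 37, 6, 7, 3, 2 and 26 at 9, 88, 170, 340, 760, 1300 and 4700 kBq, and 475 probes in the F-test in place of 4. An unadjusted p under 0.05 gave 979, 1020, 718, 341, 4152, 499, 1268 and 503 from 9 to 4700 kBq. Leaving out 1 rat at a time gave 0 to 1 at 9, 88, 170 and 760 kBq, 0 to 3 at 340 kBq, 0 to 2 at 4700 kBq and 0 to 0 at 260 and 1300 kBq.

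The median log2 ratio of the members with slide as a block was -1.13, -2.16, 0.75, -1.29 and 0.72 at 9, 88, 170, 260 and 1300 kBq, in place of -0.56, -1.01, 0.31, 0.03 and 0.31. With array weights it was 0.19, -0.54, -0.49 and 0.018 at 9, 88, 760 and 1300 kBq, and quantile normalization brought it to 0.065, -0.12 and 0.011 at 170, 260 and 1300 kBq. At 340 kBq it was 0.14 with quantile normalization, 0.14 in the authors' matrix and 0.18 with slide as a block. Leaving out 1 rat gave medians of -1.06 to 0.39 at 9 kBq, -1.53 to 0.18 at 88 kBq, 0.14 to 0.48 at 170 kBq, -0.21 to 0.23 at 260 kBq, 0.41 to 0.72 at 340 kBq, -3.22 to 0.14 at 760 kBq, 0.016 to 0.50 at 1300 kBq, -0.82 to 0.27 at 4700 kBq.

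Ratios of single genes changed sign, also large ones at 88 and 760 kBq when rat 3 of the group was left out. Array weights gave 0.32, 0.27 and 0.25 for Myh4, Tnni2 and Ckm at 9 kBq, -0.30 for Myh4 at 1300 kBq and 0.21 for Ckm at 260 kBq. Slide as a block gave -1.33 and -1.17 for Myh4 and Tnni2 at 260 kBq, and quantile normalization and the authors' matrix gave -0.14 and -0.12 for Tnni2 there. Leaving out 1 rat gave, at 760 kBq, -3.30 to 0.061 for Myh1, -4.16 to -0.02 for Myh2, -3.06 to 0.36 for Myh4, -3.39 to 0.13 for Actn3, -3.05 to 0.18 for Tnni2, -3.12 to 0.16 for Tnnt3, -2.97 to 0.14 for Tnnc2, -3.16 to 0.063 for Myl11, -3.65 to 0.13 for Pvalb, -3.28 to 0.14 for Ckm. At 4700 kBq it gave -1.17 to 0.047 for Myh1, -3.20 to -0.87 for Myh2, -0.80 to 0.92 for Myh4, -0.70 to 0.53 for Actn3, -0.85 to 0.24 for Tnni2, -0.98 to 0.34 for Tnnt3, -0.78 to 0.22 for Tnnc2, -0.77 to 0.21 for Myl11, -0.64 to 0.66 for Pvalb, -1.04 to 0.30 for Ckm. For Myh4 it gave -1.19 to 0.49 at 9 kBq, -2.13 to 0.21 at 88 kBq, -0.072 to 0.70 at 170 kBq, -0.19 to 0.57 at 260 kBq, -0.11 to 1.10 at 1300 kBq. For Tnni2 it gave -0.87 to 0.41 at 9 kBq, -1.43 to 0.18 at 88 kBq, -0.24 to 0.23 at 260 kBq, and for Ckm -1.06 to 0.41 at 9 kBq, -1.71 to 0.17 at 88 kBq, -0.37 to 0.25 at 260 kBq, -0.017 to 0.53 at 1300 kBq.

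The count of members whose slope on Iyd passed the limit below 0 was 3 of 10. It was 0 with quantile normalization and in the authors' matrix, beside 19.0% and 18.8% of all probes. It was 8 with normexp background, where 11676 of all probes (38.5%) passed in place of 7130. With slide as a block it was 1, beside 23.7%, and with only probes above background 4, beside 29.6%. Leaving out 1 rat gave 0 to 8 members, beside 21.0% to 27.9% of all probes (6372 to 8480). It gave 0 without rat 2 at 9 kBq, rat 3 at 88 kBq or rat 2 at 760 kBq, 1 without rat 3 at 4700 kBq, 6 without rat 4 at 88 or at 170 kBq, 7 without rat 3 at 760 kBq and 8 without rat 4 at 760 kBq. Within the ranges of Iyd, 0 of 20 relations passed by r with either scaling, while by rho 4 passed an adjusted p of 0.05 and 10 did with quantile normalization (9 below 0 at high Iyd, and Ckm above 0 at low Iyd, where 0.297% of all probes had a rho as high).

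With the replicate block, rat number as a fixed term, 9 of 10 members had such a slope, and the counts of regulated transcripts stayed at 0. The count of members is given without the share of all probes under this block and cannot be read against it. The numbers do not pair the arrays, since 16 of 32 pairs with controls correlated over 0.1 and 8 of 36 arrays correlated best with their own number.

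The set without the 4 low rats was chosen from the levels of the members themselves. That set was thus chosen after seeing the data, whereas all 36 rats are the whole series. Over all 36 rats r with Myh7 turned positive, at 0.61 for Myh1, 0.62 for Myh4, 0.61 for Tnni2, 0.61 for Tnnt3, 0.58 for Tnnc2, 0.62 for Actn3, 0.59 for Myl11 and 0.62 for Ckm. It was 0.63 for Pvalb and 0.84 for Myh2. With Ckm, r was 0.88 for Myh2 and 0.94 for Pvalb. The 4 low rats were low in the members and in Myh7. Correlations (r) with Iyd after subtracting group means or within each slide were not run. The slopes, which were fitted over both ranges of Iyd, were taken with group means, and separately within slides with no group term. With 4 rats per group the pooled SDs of 1.87 to 2.95 log2 units, 1.06 to 2.14 without rat 3 at 760 kBq, limit which changes could pass, and signal below background limits the low Iyd and Myh2 values.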
